A study of Mus musculus with 12 samples.

Results

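The interferon-stimulated genes described here are 35 genes of the innate antiviral response, taken as a list of symbols and matched by symbol to the rows of the deposited tables, which held 16288 genes in all. RNA was sequenced from C2C12 cells, an immortalized mouse myoblast line. The study compared DMSO, the vehicle, with 50 uM PFI-3, an inhibitor of a family of bromodomains, the modules with which proteins read acetylated histones. Its targets are the SWI/SNF remodeller ATPases BRM and BRG1, encoded by Smarca2 and Smarca4, and the subunit PB1, encoded by Pbrm1. Each treatment was sampled in proliferating cells (GM), and 24 h and 48 h after cells near confluence were moved to medium with low horse serum and insulin to induce differentiation (DM), called 24 h and 48 h below. Each of the 6 groups had 2 libraries, labelled A and B and called biological duplicates. All groups were pretreated for 12 h, and the agent was renewed every 24 h in differentiation medium. No group received interferon, a virus or another immune stimulus according to the labels.

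Type I interferons are secreted proteins that bind a receptor pair on the cell surface and act through the kinases JAK1 and TYK2. The kinases phosphorylate transcription factors, among them STAT2, which join IRF9 in a complex that binds the interferon-stimulated response element (ISRE) in the promoters of these genes. Genes of the interferon gamma response often carry another element, the gamma-activated site (GAS). Many of the induced proteins sense viral RNA, degrade it or block its translation, and others raise the display of peptides on MHC class I. Fibroblasts, myoblasts and most other nucleated cells can respond in this way, and several of the genes are transcribed at a low level without added interferon. SWI/SNF complexes, which contain BRM or BRG1, are known to take part in the opening of interferon-inducible promoters.

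Libraries held 12576374 to 13658352 expected counts. The GM replicates stood apart from the others in their spread: chi-square over degrees of freedom between A and B was 19.1 with DMSO and 14.1 with PFI-3, against 1.75 to 2.13 in the DM pairs, where counting error alone gives about 1. What the letters mean is not given in the labels. PFI-3 targets a protein domain, so the counts of Smarca2, Smarca4 and Pbrm1 do not check the labels. The 8 myoblast markers were detected in C2C12 cells in every group, with summed levels of 769 to 4594 CPM (counts scaled to a common library total). The summed level of 10 markers of differentiated muscle was at most 12.3 CPM in GM. It was 2709 and 2715 CPM with DMSO and 1086 and 1100 CPM with PFI-3 at 24 h. At 48 h it was 20290 and 20320 CPM with DMSO and 12860 and 12980 CPM with PFI-3. The part of this difference in muscle markers in the results below was not tested. Of 11 leukocyte markers, Adgre1, Tyrobp and Cd3e were listed in none of the libraries, Ptprc had at most 2 counts, and the sum of the list was 8.05 to 22.4 CPM, most of it from Cd14 (46 to 178 counts) and Cd68 (11 to 127 counts), which were present in every library. The sum of 7 fibroblast markers was 684 to 1460 CPM in GM. It was 5433 and 5584 CPM with DMSO and 4334 and 4437 CPM with PFI-3 at 24 h, and 5499 and 5751 against 4090 and 4316 CPM at 48 h, and its part in the results was not tested. Strand use in counting is not given in the sources used here, and Isg15, Ifit1, Ifih1, Dhx58, Stat2, Usp18, Rtp4, Parp9, Dtx3l, Eif2ak2, Trim25, Gbp2, Gbp3, Psme1 and B2m each overlap another gene in the RefSeq annotation, so their counts may hold reads of it.

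Several promoters of the members hold the letters of the ISRE core. Shown are 7 of them, a selection from those whose genes parted at 48 h, as described below. RefSeq promoter windows (GRCm38.p6, the patch release of mm10, 250 bases before to 50 bases after each annotated start) matched 27 of the 35 members by gene. Of these, 17 (63.0%) held the ISRE core GAAANNGAA on either strand, against 9.76% of 27025 genes with a window. The GAS consensus TTCNNNGAA, also searched on both strands, was found in 6 of 27 (22.2%), against 9.55% of all genes, and 1 of these matches, in Bst2, overlapped an ISRE core match. More than a single ISRE core match stood in the window of 8 members, against 0.736% of all genes. The following sequences are the 160 bases immediately before the annotated start, outside the gene, on the gene's strand and 5′ to 3′, with the ISRE core matches in capitals. A match on the opposite strand is shown as it reads on the gene's strand, beginning with TTC. The first 4 genes are Isg15 (chr4:156200819-156200978, minus strand), Ifit1 (chr19:34640729-34640888, plus strand), Ifih1 (chr2:62646256-62646415, minus strand) and Rsad2 (chr12:26456453-26456612, minus strand). The other 3 are Bst2 (chr8:71537473-71537632, minus strand), Gbp2 (chr3:142620503-142620662, plus strand) and B2m (chr2:122147527-122147686, plus strand).
Isg15: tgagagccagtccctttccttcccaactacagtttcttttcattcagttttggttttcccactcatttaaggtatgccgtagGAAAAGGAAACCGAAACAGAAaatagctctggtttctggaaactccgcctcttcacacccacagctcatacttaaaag
Ifit1: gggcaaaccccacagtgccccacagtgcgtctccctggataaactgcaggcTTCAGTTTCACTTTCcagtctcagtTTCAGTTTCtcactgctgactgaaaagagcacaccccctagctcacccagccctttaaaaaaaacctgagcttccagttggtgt
Ifih1: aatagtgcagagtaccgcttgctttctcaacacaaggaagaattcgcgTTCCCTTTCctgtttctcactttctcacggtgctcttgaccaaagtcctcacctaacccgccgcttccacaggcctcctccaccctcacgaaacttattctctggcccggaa
Rsad2: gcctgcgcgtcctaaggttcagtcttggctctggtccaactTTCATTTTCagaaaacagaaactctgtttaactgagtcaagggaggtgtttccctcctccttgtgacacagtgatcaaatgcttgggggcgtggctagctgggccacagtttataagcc
Bst2: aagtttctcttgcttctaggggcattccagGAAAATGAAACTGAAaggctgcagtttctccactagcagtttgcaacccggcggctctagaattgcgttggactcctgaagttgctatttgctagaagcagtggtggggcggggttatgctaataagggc
Gbp2: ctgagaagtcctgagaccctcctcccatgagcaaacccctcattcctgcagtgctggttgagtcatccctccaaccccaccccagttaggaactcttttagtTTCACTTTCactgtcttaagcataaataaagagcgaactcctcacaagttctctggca
B2m: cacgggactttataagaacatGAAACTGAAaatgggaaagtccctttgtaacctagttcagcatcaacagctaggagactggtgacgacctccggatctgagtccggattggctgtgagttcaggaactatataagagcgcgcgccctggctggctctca

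In these promoters the matches of Isg15 began at -78, -72 and -66 from the start and formed an unbroken run in which neighbours share bases. Those of Ifit1 began at -109, -103 and -84, and those of Bst2 at -130 and -124. Ifih1 had a match at -112 and another at 33, beyond the bases shown, while Rsad2, Gbp2 and B2m had 1 match each, at -119, -58 and -139. These promoters were picked because they hold the core and their genes parted at 48 h. That the core stands in genes lower and in genes higher with PFI-3 thus follows from the choice. The PFI-3 libraries of Isg15, Ifit1, Ifih1 and Rsad2 lay below the DMSO libraries at 48 h. None of them had an adjusted p-value under 0.05 there in the fit of all libraries described below. The windows of Irf7, Irf9, Oasl2, Xaf1, Dtx3l, Psme2 and Tap1 held neither motif. A match is a description of the letters and not a measured binding site. No window was matched for Dhx58, Oas2, Mx1, Mx2, Usp18, Rtp4, Parp9 and Parp14.

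**Figure D1:**
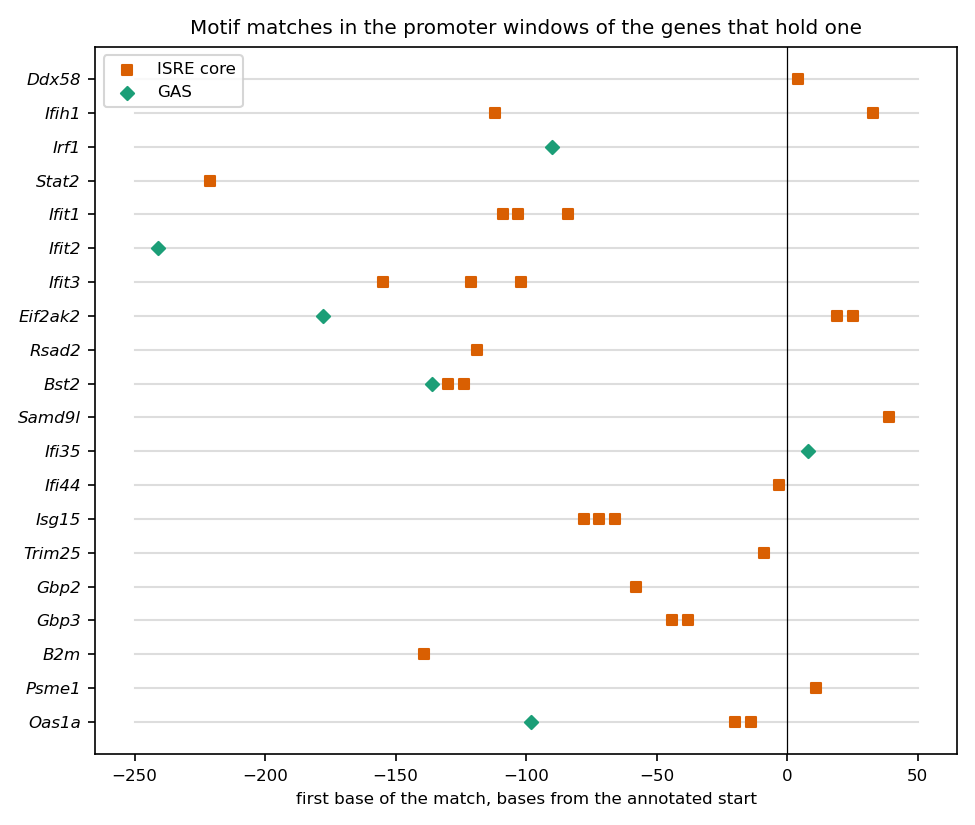
Position of each ISRE core match (squares) and GAS match (diamonds) in the promoter windows of the members that hold one; the x axis is the first base of the match in bases from the annotated start and the grey line is the window. Most ISRE core matches lie before the start, and those of Ddx58, Eif2ak2, Samd9l, Psme1 and 1 of Ifih1 lie after it.

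Expression of the members ranged over several orders of magnitude. On the FPKM scale, which corrects for transcript length, B2m, the light chain of MHC class I, had the highest group means, from 213 in GM with DMSO to 450 at 48 h with PFI-3. Psme2 (47.9 to 107 FPKM) and Psme1 (30.2 to 55.9 FPKM), which encode activator subunits of the proteasome, and the transcription factor Irf1 (17.8 to 30.5 FPKM) followed, so these genes were expressed in every group. At the other end, Oas1a reached at most 7.88 counts in a library and Mx1 at most 10. These 2 genes did not pass the low-count filter of edgeR and were not tested, and 33 members were. Of the 35, 20 had at least 10 counts in both libraries of all 6 groups. Oas2, Mx2, Ifi44 and Usp18 passed the filter with at least 10 counts in both libraries of at most 2 groups, so that their passing depended on groups in which they were high.

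In GM, the level of many members depended on the library. Ifit1, which binds viral RNA lacking a host-type cap, had 61 counts in DMSO library A and 4 in B, and 224 and 48 in PFI-3 libraries A and B. Isg15, a ubiquitin-like modifier, had 65 and 7 counts with DMSO and 160 and 31 with PFI-3. Ifih1, which encodes the long double-stranded RNA sensor MDA5, had 48 and 8 counts with DMSO and 121 and 39 with PFI-3. In each of these genes library B was lower than library A in both treatments, and PFI-3 was higher than DMSO within each letter, but library A with DMSO was higher than library B with PFI-3. The GM groups therefore overlapped. Library B was lower than A by more than 2-fold in both treatments for 8 members, namely Isg15, Ifit1, Ifit3, Ifih1, Ifi44, Oasl2, Rsad2 and Rtp4, of 33 tested. Over all 12545 genes tested the same held for 49 (0.391%), and 213 genes were higher in B by the same measure, none of them a member. Ccl5, a chemokine induced in the same antiviral responses but not among the 35, showed the same order in GM, with 382 and 5 counts with DMSO and 552 and 103 with PFI-3. In the DM groups the letters were closer: at 48 h with DMSO, Ifit1 had 785 and 695 counts and Ifih1 207 and 190. Rsad2 with PFI-3 at 48 h had 41 and 21.

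**Figure D2:**
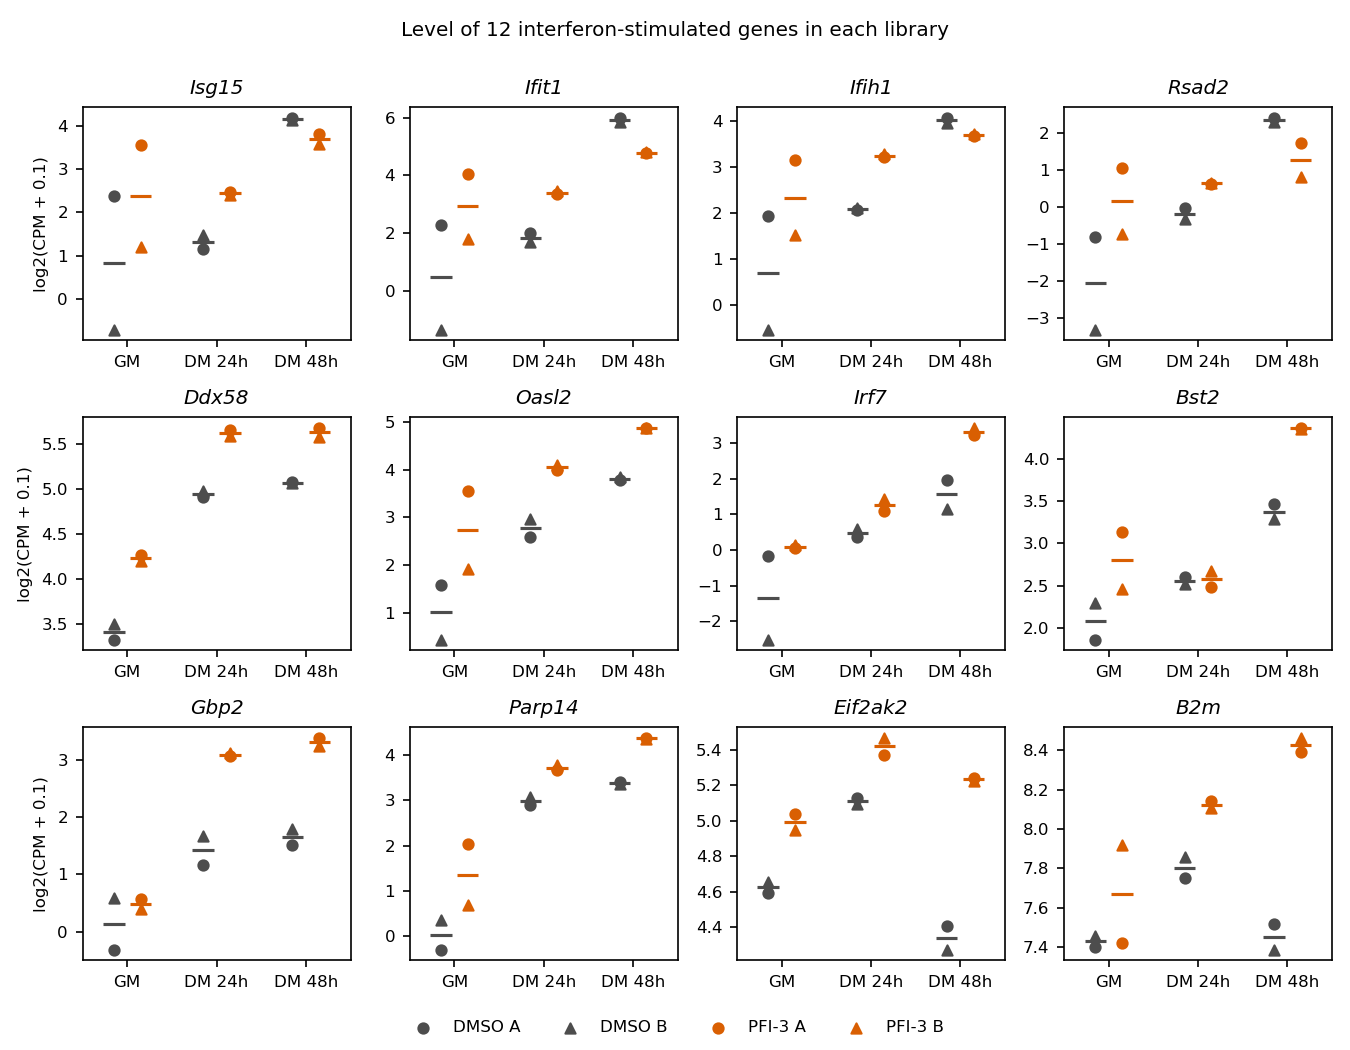
Level of 12 members in each library, as log2(CPM + 0.1) with CPM scaled by the TMM-adjusted library total, against stage; grey is DMSO, orange is PFI-3, circles are libraries A, triangles are libraries B and bars are group means. Libraries A and B are far apart in GM for Isg15, Ifit1, Ifih1 and Rsad2 and closer in DM. Rsad2 with PFI-3 at 48 h still had 41 and 21 counts. At 48 h PFI-3 lies below DMSO for these 4 genes and above it for the other 8.

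Differentiation in DMSO was accompanied by higher levels of most members, in particular between 24 h and 48 h. In such bulk samples, fewer cells that express a gene and less RNA of it per cell cannot be told apart. All 12 libraries were fitted together with edgeR's quasi-likelihood test, and a gene was called at a Benjamini-Hochberg adjusted p-value under 0.05. At 24 h, 16 of the 33 members were called higher than in GM and 0 lower, against 30.6% of all genes tested higher and 30% lower. At 48 h, 27 were called higher than in GM and 1, Eif2ak2, lower, against 37.2% and 35.9% of all genes. Between 24 h and 48 h, 18 were called higher and 4 lower, against 24.2% and 23.9%. Over the 20 members with at least 10 counts in every library, 12, 15 and 8 were called higher and 0, 1 and 4 lower in these 3 comparisons, which share the DMSO libraries. Their median log2 fold changes were 0.48, 0.91 and 0.35, against 0.02, 0.03 and 0 over all genes tested.

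The members rose at different times. The PARP9 and DTX3L complex, an ADP-ribosyltransferase and ubiquitin ligase pair, and the related Parp14 rose early. Parp14 had 9 and 16 counts in GM, 93 and 108 at 24 h and 130 and 125 at 48 h, and its log2 fold change at 24 h over GM was 3.04 ± 0.36 (SE; adjusted p = 1.88e-05). Dtx3l, Parp9, Samd9l, Stat2 and Ddx58 rose in the same interval, by 1.29 to 2.14 on the log2 scale. The rise of Ifit1 fell in the second interval, from 49 and 41 counts at 24 h to 785 and 695 at 48 h, a log2 fold change of 4.09 ± 0.59 (adjusted p = 0.000119). Isg15 went from 27 and 35 to 222 and 211 counts (2.86 ± 0.67, adjusted p = 0.00396), and Rsad2, which encodes the antiviral radical SAM enzyme viperin, from 11 and 9 to 64 and 59 (2.66 ± 0.58, adjusted p = 0.00233). In these 3 genes both 48 h libraries were above all 4 earlier DMSO libraries. Ifit3, Ifih1 and Xaf1 also rose in this interval, by 3.28, 1.95 and 1.67. The 4 members that fell in it were Eif2ak2 (440.4 and 440.5 to 259.7 and 235 counts), B2m, Psme1 and Psme2. Eif2ak2 encodes the double-stranded RNA-activated kinase PKR, which stops translation, and its log2 fold change was -0.77 ± 0.09 (adjusted p = 1.56e-05). Oas2 had no counts in GM with DMSO and 5 and 7 at 48 h, at least 2.15-fold higher against a floor of 3 counts per library.

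PFI-3 was accompanied by higher levels of many members at each stage. In GM and at 48 h, but not at 24 h, it was accompanied by a lower level of Trim25, a ubiquitin ligase of the RIG-I pathway. In GM, 9 members were called higher with PFI-3 and 1 lower, against 5.46% and 6.15% of all genes tested. At 24 h, 16 were called higher and 0 lower, against 12.2% and 11.4%. At 48 h, 18 were called higher and 1 lower, against 13.4% and 14%. The members called higher were thus 27.3%, 48.5% and 54.5% of those tested. They include Ifi44 at 24 h and 48 h and Oas2 at 48 h, which passed the filter only through PFI-3 libraries in which they were high. Over the 20 members with at least 10 counts in every library, 7, 12 and 13 were called higher and 1, 0 and 1 lower, with median log2 fold changes of 0.40, 0.44 and 0.55, against -0.01, 0 and 0 over all genes. Ddx58, Dhx58, Oasl2, Parp14, Eif2ak2, Psme1 and Tap1 were called higher at all 3 stages, 7 members against 1.40% of all genes. None of these 7 was called in GM under every alternative. At no stage was Isg15, Ifit1, Ifit2, Ifit3, Ifih1, Rsad2, Usp18, Samd9l or Gbp3 called in this fit. The spread that the fit uses is shared between stages and includes the GM libraries, in which Isg15, Ifit1, Ifit3, Ifih1 and Rsad2 differed between letters by more than 2-fold in both treatments.

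**Figure D3:**
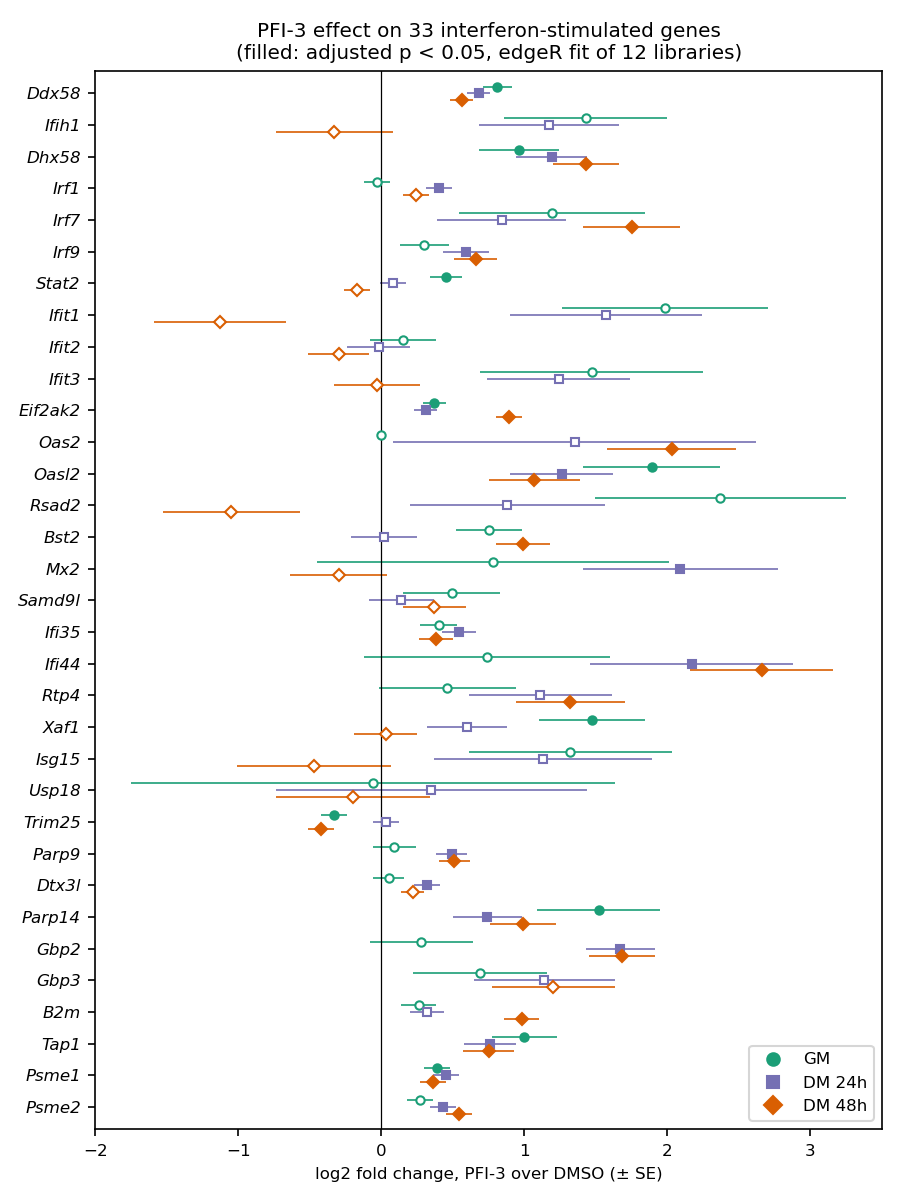
Log2 fold change of PFI-3 over DMSO (x axis) with its standard error for the 33 tested members, by stage (circles GM, squares 24 h, diamonds 48 h), from the edgeR fit of 12 libraries; filled symbols have an adjusted p under 0.05. Most symbols lie right of 0 at GM and 24 h, and at 48 h Ifit1 and Rsad2 lie near -1 with open symbols. Oas2 had no counts in GM, and its symbol there stands at 0.

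The GM calls rested on the libraries in part. PFI-3 was higher than DMSO within both letters for 25 of the 33 members and lower within both for 2, Trim25 and Oas2. Over all genes tested these shares were 31.5% and 36.9%. Oas2 had 0 counts in every GM library, so its ratios there come only from the 0.5 counts added and the library totals. Both PFI-3 libraries lay above both DMSO libraries for 15 members and below them for 1, where this held for 21.4% and 24.0% of all genes tested. Without PFI-3 library A, 4 members were called, a share near the 10.6% of all genes called there. Without PFI-3 library B, 14 were called, against 11.6% of all genes. In a fit of the 4 GM libraries alone, 0 members were called (0.303% of all genes were), 11 had an unadjusted p under 0.05, and the lowest adjusted p was 0.153. With the letter as a replicate block in that fit, Isg15, Ifit1, Ifih1, Ddx58 and Oasl2 were called higher, against 7.35% of all genes called in either direction.

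**Figure D4:**
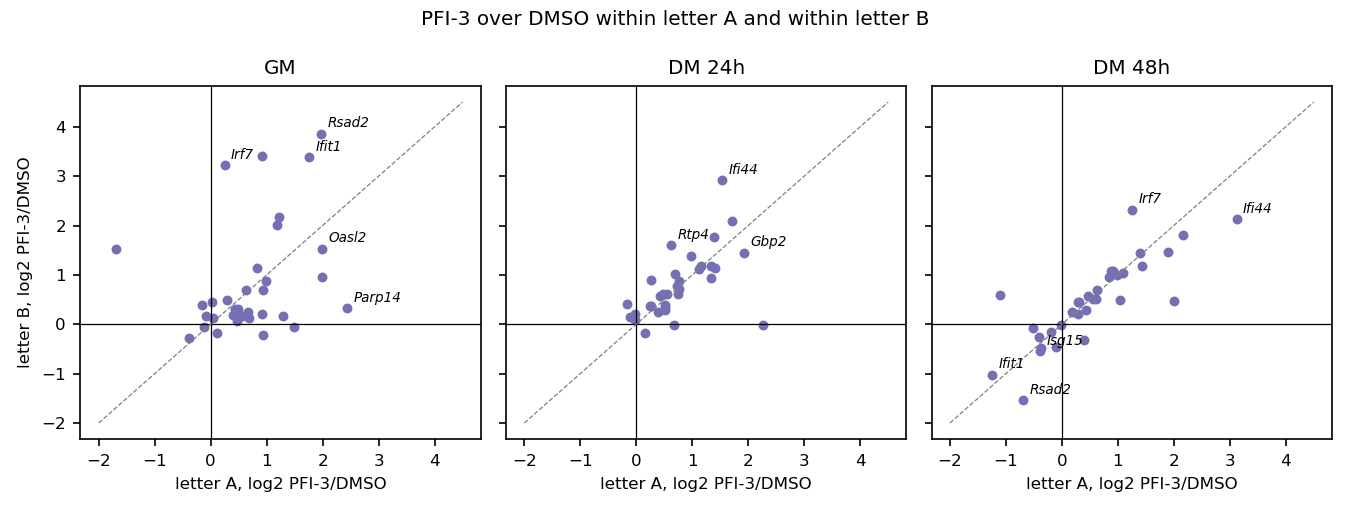
Log2 ratio of PFI-3 to DMSO within letter A (x axis) and within letter B (y axis) for the 33 tested members at each stage, from CPM with 0.5 counts added; the dashed line marks equal ratios. In GM the points scatter widely, with Irf7 at 0.25 in A and 3.22 in B and Parp14 at 2.44 and 0.33, and in DM they lie closer to the line.

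Among the RNA sensors, Ddx58, which encodes RIG-I, showed the most even response. It had 127 and 153 counts with DMSO and 263 and 257 with PFI-3 in GM, 378 and 405 against 662 and 628 at 24 h, and 413 and 409 against 653 and 610 at 48 h. Each PFI-3 library was above both DMSO libraries of its stage. The log2 fold changes were 0.81 ± 0.10 (adjusted p = 0.000474), 0.68 ± 0.08 (0.000131) and 0.56 ± 0.08 (0.000364). Dhx58, which encodes the regulator LGP2, had 18 and 16 against 39 and 31 counts in GM and 31 and 25 against 86 and 72 at 48 h, and rose by 0.96, 1.19 and 1.43 at the 3 stages. The GM call of Dhx58 was lost under 7 of 13 alternatives. Among these were DESeq2, the GM libraries alone, and leaving out PFI-3 library A or either DMSO library. Ifih1 behaved otherwise. It had 52 and 55 counts with DMSO and 121 and 126 with PFI-3 at 24 h, but 207 and 190 against 162 and 167 at 48 h, so the PFI-3 libraries were above the DMSO libraries at the first time and below them at the second. Its adjusted p-values in the fit of 12 libraries were 0.104 and 0.594.

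Of the transcription factors, Irf7, the amplifier of interferon gene transcription, differed most at 48 h. It had 47 and 26 counts with DMSO and 118 and 138 with PFI-3, a log2 fold change of 1.75 ± 0.34 (adjusted p = 0.00239). In GM it had 10 and 1 counts with DMSO and 13 and 14 with PFI-3, so that DMSO library A lay close to both PFI-3 libraries and DMSO library B far below them. Irf9, the DNA-binding subunit of the complex on the ISRE, rose at 24 h (111 and 94 to 170 and 147 counts, 0.59 ± 0.16, adjusted p = 0.0217) and at 48 h (180 and 154 to 290 and 262 counts, 0.66 ± 0.15, adjusted p = 0.00549). Irf1, the factor of the interferon gamma response, rose at 24 h by 0.40 ± 0.09 (adjusted p = 0.00703), from 557 and 629 to 828 and 781 counts. Stat2 rose in GM (196 and 252 to 336 and 311 counts, 0.45 ± 0.11, adjusted p = 0.0186). At 48 h it had 830 and 832 counts with DMSO and 753 and 783 with PFI-3, both below the DMSO libraries.

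In the fit of 12 libraries, Ifit1 alone of the 3 IFIT genes was called for a difference in the PFI-3 effect between stages. Its call for 48 h against 24 h was lost under many alternatives, given below. With the DM libraries alone, Ifit3 was called beside it. At 24 h, Ifit1 had 49 and 41 counts with DMSO and 134 and 142 with PFI-3, and at 48 h it had 785 and 695 with DMSO and 345 and 358 with PFI-3. PFI-3 was thus above DMSO at 24 h and below it at 48 h without overlap, with fitted log2 fold changes of 1.57 ± 0.67 (adjusted p = 0.112) and -1.13 ± 0.46 (adjusted p = 0.0861). Ifit3, a partner of Ifit1 in the same complex, had 9.76 and 9.82 counts against 26.4 and 23.3 at 24 h, and 97.2 and 91.6 against 99.3 and 94.3 at 48 h, where the groups overlapped. Part of the Ifit3 count is fractional in 9 libraries, as when reads are shared with a related gene. Ifit2 stayed within 114 to 261 counts in all libraries and was not called with PFI-3 in the fit of 12 libraries. Isg15 had 27 and 35 counts with DMSO and 72 and 68 with PFI-3 at 24 h, and 222 and 211 against 176 and 151 at 48 h. Rsad2 had 11 and 9 against 19 and 19, and then 64 and 59 against 41 and 21. In both genes the PFI-3 libraries lay above the DMSO libraries at 24 h and below them at 48 h. In the fit of 12 libraries the PFI-3 effect was called at neither time (adjusted p = 0.311 and 0.568 for Isg15, 0.382 and 0.132 for Rsad2), and its difference between the times was not called either (adjusted p = 0.309 and 0.164).

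Among the RNA-activated enzymes, Oasl2 and Eif2ak2 rose at all 3 stages. Oasl2, an oligoadenylate synthetase-like protein, had 37 and 17 counts with DMSO and 160 and 52 with PFI-3 in GM, 75 and 100 against 209 and 222 at 24 h, and 167 and 174 against 371 and 376 at 48 h. It rose at each stage, by 1.89 ± 0.48, 1.26 ± 0.36 and 1.07 ± 0.32 (adjusted p = 0.0258, 0.0254 and 0.0278). The GM call of Oasl2 was lost without DMSO library B (log2 fold change 1.40) or PFI-3 library A (0.85). Its 24 h and 48 h calls were each lost with DESeq2, with limma on log2(FPKM + 0.1) and with any of the libraries compared left out. Eif2ak2 rose by 0.37, 0.31 and 0.89 ± 0.09 (adjusted p = 1.63e-05 at 48 h), where it had 259.7 and 235 counts with DMSO and 482 and 478 with PFI-3. The GM call of Eif2ak2 was lost under 5 alternatives and its 24 h call under 4, with DESeq2 among them both times. Oas2, which makes the 2-5A activator of RNase L, had 5 and 7 counts with DMSO and 25 and 27 with PFI-3 at 48 h (2.03 ± 0.45, adjusted p = 0.00783). It passed the low-count filter only through these PFI-3 libraries, so the call is not separate from the filter. The call was lost with DESeq2 and without DMSO library A. Oas1a, untested, had 1 and 0 counts with DMSO and 7 and 7.88 with PFI-3 at 48 h, and 0 in the 4 libraries of 24 h.

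The other antiviral effectors differed in the stage at which they were called in the fit of 12 libraries. Bst2 and Rtp4 were called at 48 h, Mx2 at 24 h, Xaf1 in GM and Ifi35 and Ifi44 at both DM stages. Bst2, which encodes tetherin, the protein that holds budding virions at the cell surface, had 75 and 73 counts with DMSO and 72 and 82 with PFI-3 at 24 h, where the groups overlapped. At 48 h it had 134 and 118 against 262 and 260 counts, a log2 fold change of 0.99 ± 0.19 (adjusted p = 0.00206). Ifi44 had 4 and 1 against 13 and 11 counts at 24 h (2.17 ± 0.71, adjusted p = 0.0438) and 4 and 7 against 40 and 34 at 48 h (2.66 ± 0.50, adjusted p = 0.002). It passed the low-count filter only through these PFI-3 libraries, so its calls are not separate from the filter. The 24 h call of Ifi44 was lost with DESeq2, without the low-count filter and with any of the 24 h libraries left out. Rtp4 rose at 48 h from 30 and 33 to 85 and 79 counts (1.32 ± 0.38, adjusted p = 0.0234). That call was lost with any of the 48 h libraries left out. At 24 h Rtp4 had 16 and 10 against 26 and 32 counts without overlap (1.11 ± 0.50, adjusted p = 0.133). With the 24 h libraries alone it was called there (adjusted p = 0.0134). The difference of its PFI-3 effect between the times was not called in the fit of 12 libraries (adjusted p = 0.884). Ifi35 rose by 0.54 at 24 h and by 0.38 at 48 h, and its GM value was 0.40 ± 0.13 (adjusted p = 0.0658). The 48 h call of Ifi35 was lost with DESeq2 and with any of the 48 h libraries left out, and its 24 h call under 3 alternatives. Xaf1 rose in GM (7.76 and 11.9 to 34.9 and 24.2 counts, 1.47 ± 0.37, adjusted p = 0.0263). At 48 h it had 79.1 and 108 against 108 and 91 counts, and the groups overlapped. Mx2 had 2 and 1 against 8 and 6 counts at 24 h (2.09 ± 0.68, adjusted p = 0.0446) and 25 and 21 against 18 and 21 at 48 h. The 24 h call rests on few counts and was lost with the replicate block and under 8 other alternatives, among them leaving out any of the 4 libraries (adjusted p = 0.0535 with these libraries alone). In the fit of 12 libraries Samd9l and Usp18 were not called with PFI-3. With the 48 h libraries alone Samd9l was called higher there (0.37 ± 0.11, adjusted p = 0.0106). Usp18, the protease that removes ISG15, had at most 13 counts in any library, so a moderate difference was not detectable at this depth.

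Of the PARP group and the guanylate-binding proteins, which are GTPases that act on intracellular pathogens, Parp9, Parp14 and Gbp2 rose at both DM stages. Parp14 had 9 and 16 counts with DMSO and 55 and 21 with PFI-3 in GM, 93 and 108 against 166 and 179 at 24 h, and 130 and 125 against 267 and 262 at 48 h. It rose by 1.52 ± 0.43, 0.74 ± 0.24 and 0.99 ± 0.23 (adjusted p = 0.041, 0.0455 and 0.00701). Its GM call was lost with both limma settings and without PFI-3 library A (0.65) or DMSO library A (1.21). The 24 h call was lost with DESeq2, its size factors, limma on log2(FPKM + 0.1) and any of the 24 h libraries left out. The 48 h call was lost without DMSO library A, DMSO library B or PFI-3 library A. Parp9 rose by 0.49 and 0.51 at 24 h and 48 h, and Dtx3l by 0.32 at 24 h. Gbp2 had 27 and 40 counts with DMSO and 108 and 112 with PFI-3 at 24 h, and 34 and 41 against 132 and 119 at 48 h. Its log2 fold changes were 1.67 ± 0.24 (adjusted p = 0.000459) and 1.68 ± 0.23 (adjusted p = 0.000242), against 0.28 ± 0.36 in GM. Gbp3 had PFI-3 above DMSO at both DM stages without overlap. It missed the threshold in the fit of 12 libraries (1.14 and 1.20, adjusted p = 0.112 and 0.0562).

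In antigen presentation, the transporter gene Tap1, which carries peptides into the endoplasmic reticulum, rose at all 3 stages. It had 27 and 29 against 52 and 67 counts in GM and 65 and 86 against 138 and 128 at 48 h, and its log2 fold changes were 1.00, 0.76 and 0.75. The calls of Tap1 at the 3 stages were lost under 4, 3 and 2 alternatives, that at 24 h with DESeq2 among them. Psme1 rose by 0.39, 0.45 and 0.36, and Psme2 by 0.43 at 24 h and 0.54 at 48 h. The Psme1 calls were lost under 4, 1 and 4 alternatives, and the 24 h call of Psme2 under 2. B2m had 2248 and 2043 counts with DMSO and 4288 and 4524 with PFI-3 at 48 h, a log2 fold change of 0.98 ± 0.12 (adjusted p = 0.000112). In GM it had 2156 and 2380 against 2350 and 3393 counts, and the groups overlapped. Trim25 went the other way, with 462 and 438 against 381 and 375 counts in GM (-0.33 ± 0.09, adjusted p = 0.0415) and 1004 and 935 against 805 and 704 at 48 h (-0.42 ± 0.09, adjusted p = 0.00316). At 24 h it had 490 and 468 against 501 and 505 counts (0.03 ± 0.09, adjusted p = 0.845). Its GM call was lost with DESeq2, both limma settings, the GM libraries alone, and without DMSO library A or either PFI-3 library.

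The DM comparisons were also fitted on their own 4 libraries, without the GM libraries. At 24 h, 23 members were then called higher and 0 lower, against 22.8% and 21.9% of all genes tested. The 23 included Isg15, Ifit1, Ifit3 and Ifih1. At 48 h, 22 were called higher and 7 lower, against 22.2% and 22.8%. The 7 were Isg15, Ifit1, Ifit2, Ifih1, Stat2, Rsad2 and Trim25, with log2 fold changes of -1.13 ± 0.08 for Ifit1 (adjusted p = 3.24e-11), -1.04 ± 0.26 for Rsad2 (0.00202), -0.46 ± 0.12 for Isg15 (0.00211) and -0.33 ± 0.11 for Ifih1 (0.0219). The share called lower was thus near that of all genes, while no member was called lower at 24 h. This fit rests on the spread within the DM pairs, which was small. The series text calls A and B biological duplicates without saying what was duplicated, and the p-values measure only the spread between them.

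The change in the PFI-3 effect between stages was tested directly. For 24 h against GM, 0 members were called in either direction by edgeR or by DESeq2, 6 had an unadjusted p under 0.05, and 1.78% of all genes were called higher and 1.59% lower. For 48 h against GM, B2m and Eif2ak2 were called higher and Ifit1, Stat2, Rsad2 and Xaf1 lower, 2 and 4 members against 8.24% and 6.29% of all genes. In a fit of those 8 libraries alone, 1 member, Stat2, was called, against 8.23% of all genes. With the replicate block in that fit, 8 were called, B2m and Eif2ak2 higher and Isg15, Ifit1, Ifih1, Stat2, Oasl2 and Rsad2 lower, against 18.1% of all genes. Xaf1 was called in neither, nor with the replicate block in the fit of 12 libraries. For 48 h against 24 h, B2m and Eif2ak2 were called higher and Ifit1 and Trim25 lower, 2 and 2 members against 7.12% and 4.97%. The difference for Ifit1 was -2.71 ± 0.81 (adjusted p = 0.0497), for B2m 0.66 ± 0.17 (adjusted p = 0.0283) and for Eif2ak2 0.58 ± 0.12 (adjusted p = 0.00703). Of these calls only that of Eif2ak2 held under every alternative. The Ifit1 call was lost with DESeq2, its size factors, both limma settings and any of the DM libraries left out. The B2m call was lost with any DM library left out. Trim25 lost its call with DESeq2, both limma settings and any DM library left out except PFI-3 library A at 48 h. In a fit of the 8 DM libraries alone, 3 members were called higher (Bst2, Eif2ak2 and B2m) and 8 lower (Isg15, Ifit1, Ifit3, Ifih1, Stat2, Rsad2, Mx2 and Trim25), against 17.5% and 15.8% of all genes.

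Seen by treatment, mean CPM was compared between the times after adding the CPM of 0.5 counts to each mean. This moves the ratios of genes with few counts closer to equality. On this scale Ifit1 was 16.9-fold higher at 48 h than at 24 h with DMSO and 2.61-fold higher with PFI-3. For Isg15 the ratios were 7.19 and 2.39, for Rsad2 6.14 and 1.66, and for Ifih1 3.84 and 1.37. In these 4 genes the mean CPM with PFI-3 was above that with DMSO at 24 h and below it at 48 h. Irf7 had the opposite order, with 2.27 and 4.25, and so did Bst2, with 1.77 and 3.46. For B2m the ratios were 0.783 and 1.24. Of the 7 genes whose promoters are shown above, the first 4 thus had the smaller late ratio with PFI-3, and Bst2 and B2m the larger one. The 7 were chosen by their 48 h values, which also enter the late ratio, so this split follows in part from the choice. Gbp2 had nearly equal ratios, 1.166 with DMSO and 1.17 with PFI-3.

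**Figure D5:**
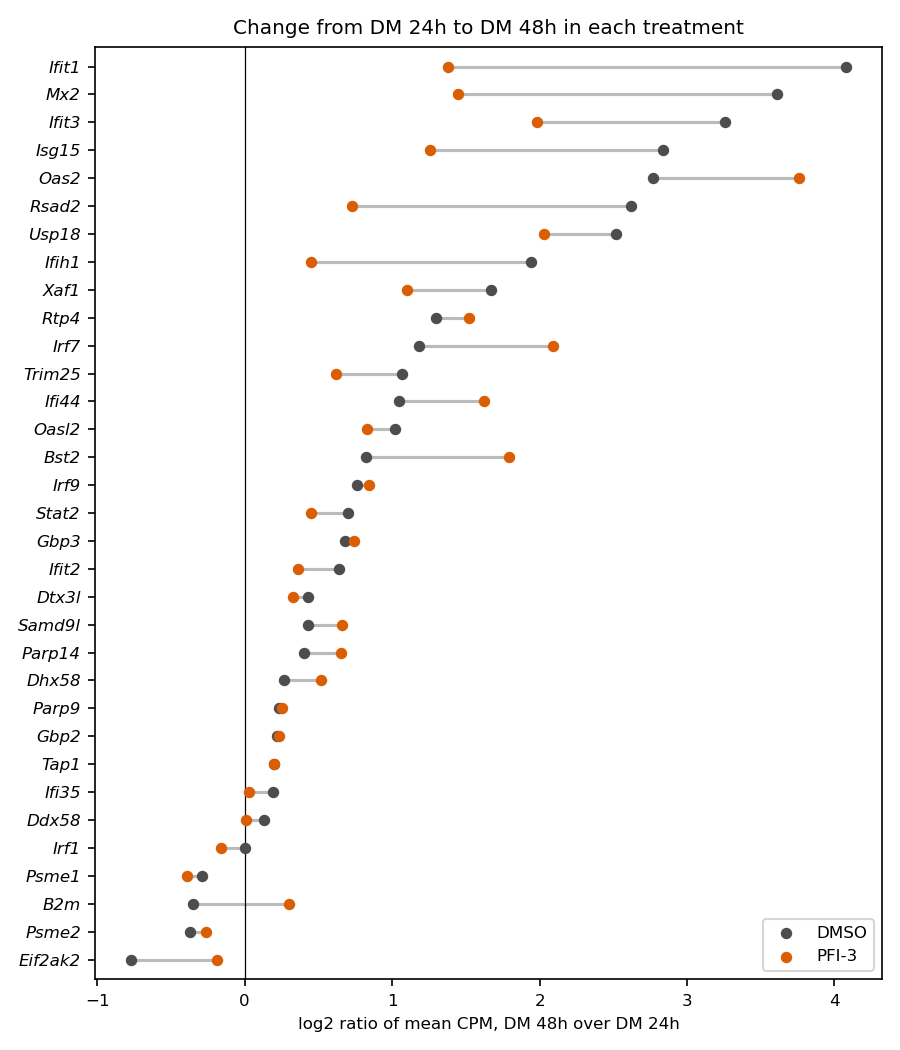
Log2 ratio of mean CPM at 48 h to that at 24 h (x axis) for the 33 tested members with DMSO (grey) and PFI-3 (orange), ordered by the DMSO value. The CPM of 0.5 counts was added to each mean. The gap between treatments is wide for Ifit1, Mx2, Rsad2, Isg15 and Ifih1, with PFI-3 to the left, and Irf7, Bst2 and B2m have PFI-3 to the right.

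The other genes of the pathway were read from lists, beside the shares of all genes called at each stage given above and all-gene medians of -0.01, 0 and 0. No interferon ligand gene of the list was in the tables. Of 15 tested receptors and signal transducers, 3, 5 and 3 were called higher with PFI-3 in GM, at 24 h and at 48 h, and 0, 0 and 2 lower, with median log2 fold changes of 0.12, 0.26 and 0.02. The feedback inhibitor Socs1 was called at no stage, and Stat3 and Socs3 each fell by 0.42 at 48 h. Of 22 tested genes of nucleic acid sensing, 1, 3 and 5 were called higher and 0, 1 and 0 lower, with Rnaseh2b, a subunit of RNase H2, lower at 24 h (-0.41). In GM and at 24 h the share of this list called higher was near that of all genes. Of 47 tested further interferon response genes, 6, 15 and 23 were called higher and 0 lower at any stage, with medians of 0.10, 0.46 and 0.57. Lgals3bp, a secreted glycoprotein, had 117 and 109 against 490 and 449 counts in GM, 371 and 398 against 1419 and 1344 at 24 h, and 333 and 312 against 1671 and 1794 at 48 h. Its log2 fold changes were 1.97, 1.81 and 2.36. Gbp7 (2.57) and Uba7, the activating enzyme for ISG15 (2.33), rose most in GM beside it, and Phf11d (2.86) and Gbp4 (2.15) at 48 h, where Phf11d had 1 and 5 counts with DMSO. Of 17 tested genes of MHC class I presentation, 5, 8 and 9 were called higher and 3, 1 and 0 lower, with medians of 0.48, 0.54 and 0.78. The immunoproteasome subunit Psmb8 went from 5 and 8 to 37 and 40 counts at 24 h (2.5 ± 0.35, adjusted p = 0.000406), and Nlrc5, the transactivator of MHC class I genes, from 13 and 5 to 26 and 28 (1.53 ± 0.44, adjusted p = 0.0249). The chaperones Calr, Pdia3 and Canx were lower in GM, by 0.22 to 0.31, and Canx at 24 h (-0.24).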

How the data were processed

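Each of the 12 libraries had a deposited table of expected counts and FPKM per gene. Per the file headers, the values are the authors' expected counts, estimates that need not be whole, and FPKM, which the authors scaled by transcript length and depth. The submitters' processing notes name mm10, HISAT, StringTie, Cufflinks, Bowtie, RSEM and DESeq2. Their versions, their roles and the strand setting are not given in the sources used here. Sequencing and library preparation were done by a service provider, per the labels.

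Expected counts were rounded and fitted with edgeR 4.0.16 (R 4.3.3) by the quasi-likelihood test, with TMM scaling, filterByExpr (12545 of 16288 genes kept), 6 groups and all 12 libraries. Adjusted p-values are Benjamini-Hochberg over all genes tested. The stage-specific fits took the same genes. Alternatives used DESeq2 1.42.0 and its size factors, limma 3.58.1 on log2(FPKM + 1) or log2(FPKM + 0.1), other filters, the letter as a replicate block, only the libraries compared, and each library left out. CPM used the TMM-adjusted totals. On simulated counts, edgeR recovered 87%, 82.5% and 87.5% of 200 genes changed 2-fold among 12545 for PFI-3 in GM, DM 24h and DM 48h respectively, with 4.9%, 2.4% and 3.3% of calls false. The simulation gave all libraries the same spread and no difference between letters. It lacked the wider spread of the GM replicates, so its GM rates cannot be taken as those of the GM libraries.

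The members, the other lists and the tests were chosen with earlier results of these data known. All members are accounted for. From the other lists, the text names Socs1 and, per comparison, the 3 called genes that rose most and the 3 that fell most, given 1 CPM or more on average over the libraries compared. A gene that this rule names is not reported here. Same-letter libraries had correlated deviations from their group means in GM (0.488) but not at DM 24h (0.018) or DM 48h (0.037). The main fit did not take the letter to pair samples, so in GM the difference between letters enters its spread. Fits with the letter as a replicate block are given as alternatives. Promoter windows came from RefSeq (GRCm38.p6). All values are limited by 2 libraries per group.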

Additional observations from a re-analysis of the deposited data

Results flagged for a closer look

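The PFI-3 effect differed between DM 48h and GM, by edgeR's test of the difference of log2 fold changes, for 6 members. It was larger at DM 48h for B2m (0.72) and Eif2ak2 (0.53), and lower for Ifit1 (-3.11), Rsad2 (-3.42), Xaf1 (-1.44) and Stat2 (-0.63). Between DM 48h and DM 24h it was larger for B2m (0.66) and Eif2ak2 (0.58) and lower for Ifit1 (-2.71) and Trim25 (-0.45). Only Stat2 in the comparison with GM and Eif2ak2 in the comparison with DM 24h were called under every alternative. Over all genes, 8.24% were larger and 6.29% lower in the first comparison and 7.12% and 4.97% in the second, so the members' shares are near those of all genes except for the 4 that were lower in the first. Both sets use the same 4 DM 48h libraries and are not independent of each other.

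For Ifit1 and Rsad2 the GM libraries labelled B were lower than those labelled A in both treatments, so the GM side of these differences has a wide spread (SE 0.85 for Ifit1 and 1.00 for Rsad2). In a fit of the 8 GM and DM 48h libraries alone, neither gene was called without the replicate block, and both were with it. The summed muscle markers differed between treatments in both DM stages, and their part was not tested either.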

How the results depend on the processing

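No called value of a member changed direction under any alternative that was run. Of 1605 recomputed values of 121 called results, 1344 stayed on their side of the threshold and 261 lost the call; 61 results were called under every alternative. The number of members called with PFI-3 in GM (10) became 6 with DESeq2, 0 with only the libraries compared and 5 when the replicate block was added to that fit, and 4 to 14 when 1 library was left out (4 without PFI-3 A). At DM 24h (16) it was 7 with DESeq2 and 6 to 8 with any DM 24h library left out. At DM 48h (19) it was 29 with only the libraries compared, with or without the replicate block, and 12 to 15 with a library left out (12 without DMSO A or PFI-3 A). In DMSO, leaving out a library gave 10 to 18 for DM 24h against GM (16; 10 without DM 24h DMSO B), 25 to 27 for DM 48h against GM (28) and 14 to 17 for DM 48h against DM 24h (22; 14 without DM 48h DMSO A). For the difference of PFI-3 effects between DM 24h and GM (0) it was 1 with limma on log2(FPKM + 1) and 0 to 2 with a library left out. Between DM 48h and GM (6) it was 3 with DESeq2, 10 with limma on log2(FPKM + 1), 1 with only the libraries compared, 8 when the replicate block was added to that fit and 1 to 10 with a library left out (10 without GM PFI-3 B, 1 without DM 48h DMSO B, 3 and 2 without DM 48h PFI-3 A and B). Between DM 48h and DM 24h (4) it was 2 with DESeq2, 11 with only the libraries compared, with or without the replicate block, and 1 or 2 without any of the 8 libraries. The cause was not tested; a group reduced to 1 library is assumed to vary like the others. In the fit of 12 libraries the replicate block gave 10, 15 and 19 members called with PFI-3, 16, 28 and 22 in DMSO and 0, 5 and 4 for the differences. Genes with few counts, such as Usp18, Mx1 and Oas1a, are limited by depth.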
